A study of Homo sapiens with 6 samples.

Results

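Chemokines, interleukins and their receptors were followed across 21NT breast cancer cells that stably carried an empty vector or 1 of the TBX3 isoforms. The members were the rows of the expression table whose symbol starts with CXCL, CXCR, CCL, CCR or IL followed by a digit, which gave 118 of 20824 genes. By role they comprised 28 chemokine ligands, 14 chemokine receptors, 30 interleukins, 36 interleukin receptor chains, 4 antagonists or binding proteins and 6 other genes, namely antisense genes, a pseudogene and the enzyme gene *IL4I1*. Family members with other names, such as *CX3CL1*, *LIF* and *CSF1*, were not chosen by this rule and were described only within a list of signalling genes.

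21NT is a human breast epithelial cancer line used as a model of ductal carcinoma in situ, a lesion still held within the milk duct. The cells were transfected with pcDNA3.1 empty vector (EV), TBX3iso1 or TBX3iso2, and G418-resistant clones were pooled for each line. All lines therefore shared the vector backbone, the selection drug and a medium with serum, insulin, epidermal growth factor and hydrocortisone. RNA-Seq was available from 2 libraries for each of the 3 lines. No source used here states that the libraries of a line came from separate cultures, so the p-values measure the spread between these libraries, which may be technical, and each line stands for 1 transfection. TBX3 is a T-box transcription factor, and its isoforms differ by an insert within the DNA-binding domain that TBX3iso2 carries and TBX3iso1 lacks.

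Chemokines are small secreted proteins that attract cells along a gradient, and they act through G protein-coupled receptors on the responding cell. The CXC chemokines with an ELR motif, such as CXCL8, CXCL1 and CXCL5, bind CXCR1 and CXCR2 and are known for attracting neutrophils and promoting vessel growth. Interleukins bind receptor complexes built from a specific chain and often a shared chain, and signal mainly through JAK and STAT proteins or, for the IL-1 and IL-17 families, through NF-kB. Epithelial cells make several of these factors themselves, among them CXCL8, CCL20, IL6, IL1A and IL18.

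Expression was given as RPKM, the density of reads along the transcript relative to the depth of the library, so levels can be set side by side between genes. The libraries held 43176600 to 54512400 alignments, and at that depth 0.1 RPKM stands for 4.32 to 5.45 alignments per kb of transcript. Libraries of the same line differed with an SD, on the log2 scale, of 0.182 in EV, 0.242 in TBX3iso1 and 0.273 in TBX3iso2. *TBX3* itself was at 8.52 and 8.24 RPKM in EV, 13.1 and 11.4 in TBX3iso1, and 17.5 and 15.5 in TBX3iso2. Its log2 fold change against EV was 0.54 ± 0.10 (SE) for TBX3iso1, which did not reach the fold threshold, and 0.97 ± 0.10 for TBX3iso2. Between the isoform lines it differed by 0.43 ± 0.10 (limma adjusted p = 0.0275), under the fold threshold. The amount of *TBX3* thus differed along with the isoform, and its part in the results was not tested. The paper reports isoform-specific transcript rises by RT-qPCR and more total TBX3 protein by western blot in these lines. The 6 mammary epithelial markers examined summed to 2672 to 2766 RPKM in EV, 2102 to 2289 in TBX3iso1 and 2349 to 2591 in TBX3iso2. Of these, *KRT19*, *CDH1* and *ERBB2* lay below EV in every isoform library, whereas *EPCAM* and *KRT18* lay above EV in TBX3iso2. Of 11 leukocyte markers in the table, 7 stayed under 0.5 RPKM in every library, and *PTPRC*, which marks all leukocytes, did not exceed 0.0102 RPKM. *CD14*, *CD68*, *CSF1R* and *LAPTM5* were above that level in all lines, and the summed leukocyte list was 120 to 126 RPKM in EV, 103 to 109 in TBX3iso1 and 102 to 106 in TBX3iso2. Fibroblast markers, most of it *COL1A1*, summed to 4.73 to 5.0 RPKM in EV, 8.18 to 8.81 in TBX3iso1 and 7.18 to 7.61 in TBX3iso2. Of the 7 fibroblast markers, 5 stayed under 0.5 RPKM in every library. *DCN*, *LUM* and *FAP* lay below EV in TBX3iso2, and *LUM* and *COL1A2* above it in TBX3iso1. Endothelial markers, nearly all of it *PECAM1*, summed to 7.41 to 7.77, 1.42 to 1.49 and 1.32 to 1.49 RPKM in the same order. The part of these shifts in the results was not tested.

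Most of the family was silent or close to it. Of the 118 members, 53 stayed under 0.1 RPKM in every library, and 48 were listed at 0 in at least 1 library. Only 41 members reached the mean of 0.5 RPKM over the 6 libraries that was required for a test, and 14 reached 10 RPKM in at least 1 line. Ligands and receptors differed in how they were represented. The tested members held 10 of the 28 chemokine ligands but 1 of the 14 chemokine receptors, and 8 of the 30 interleukins but 20 of the 36 interleukin receptor chains. The other tested members were 2 of the 4 antagonists or binding proteins. Summed over all 58 ligands, the level was 125 ± 9.0 RPKM in EV (SD, n = 2), 156 ± 7.62 in TBX3iso1 and 307 ± 33.5 in TBX3iso2. Summed over all 50 receptors it was 138 ± 3.95, 137 ± 2.26 and 125 ± 7.02 RPKM. The ligand sum of the TBX3iso2 line thus stood above both other lines, whereas the receptor sums differed by little. Most of the rise in the ligand sum lay in *CXCL1*, *CXCL2*, *CXCL3*, *CXCL5* and *CXCL8*, which are neighbours in a gene cluster. These 5 genes made up 69.2 RPKM of it in EV, 92.3 in TBX3iso1 and 239 in TBX3iso2.

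Each isoform line was compared with EV, and the isoform lines were compared with each other, which is the test of whether they differ. A gene was called higher or lower when limma gave an adjusted p under 0.05 and the fold change exceeded 1.5. In TBX3iso1 against EV, 11 of the 41 tested members were higher and 8 lower, or 46.3% called, where 21.5% of all 12805 tested genes were called (7.46% higher and 14.1% lower). In TBX3iso2 against EV, 17 were higher and 5 lower, or 53.7%, where 21.2% of all tested genes were called (8.94% higher and 12.3% lower). Between the isoforms, 10 were higher with TBX3iso2 and 7 lower, or 41.5%, where 6.29% of all tested genes were called (3.47% higher and 2.82% lower). Without moderation of the variance, a linear model on the log2 values called 3 higher and 2 lower between the isoforms. Both comparisons with EV use the same EV libraries and are not independent of each other. *CCL5*, *CXCL17* and *IL7R* reached the mean required for a test only through the lines in which they were high, so a difference was built into their entry.

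Among the 18 ligands tested, 5 were higher and 4 lower in TBX3iso1 against EV, 11 were higher and 3 lower in TBX3iso2 against EV, and 8 were higher and 4 lower in TBX3iso2 against TBX3iso1. Their median log2 fold changes were 0.18, 1.04 and 0.35, beside −0.05, −0.00 and 0.05 over all tested genes. Among the 21 receptors tested, 5 were higher and 4 lower, 6 higher and 2 lower, and 2 higher and 2 lower in the same comparisons, with medians of 0.13, 0.10 and −0.11. The called share between the isoforms was 66.7% for ligands and 19.0% for receptors, beside 6.29% of all tested genes. Against EV it was 50.0% and 42.9% with TBX3iso1, beside 21.5%, and 77.8% and 38.1% with TBX3iso2, beside 21.2%. The ligands higher between the isoforms included *CXCL1*, *CXCL2*, *CXCL3*, *CXCL5* and *CXCL8*, which are neighbours in 1 cluster.

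**Figure D1:**
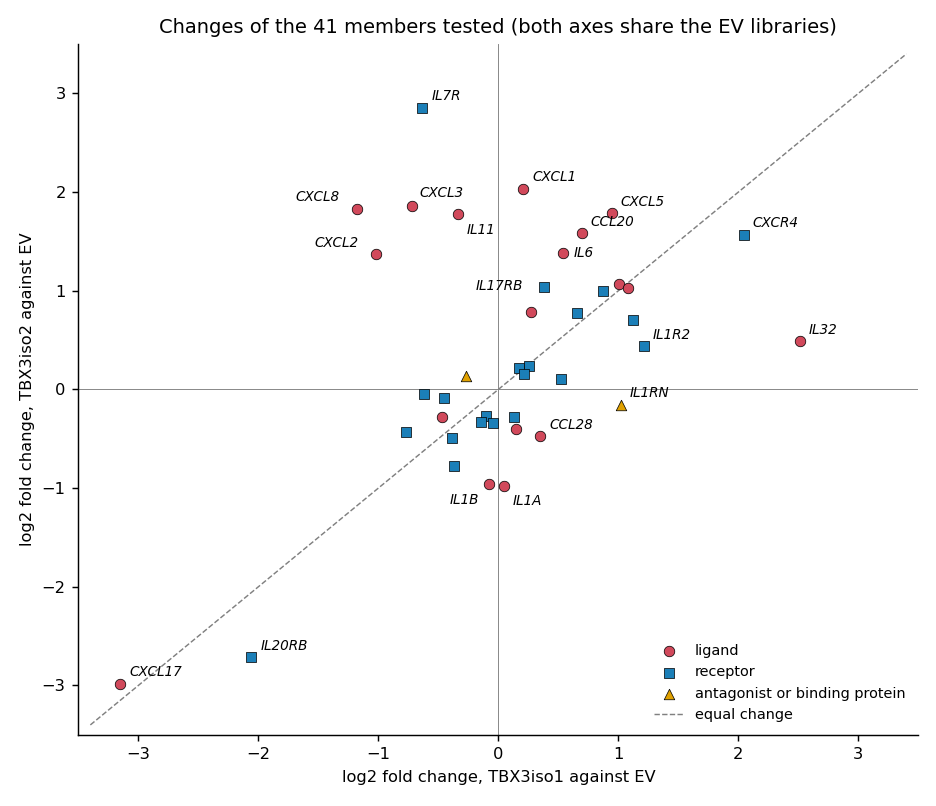
Log2 fold change of the 41 tested members in TBX3iso1 against EV (horizontal axis) and in TBX3iso2 against EV (vertical axis), with circles for ligands, squares for receptors, triangles for antagonists or binding proteins and a dashed line for equal change. *CXCL8*, *CXCL2*, *CXCL3*, *IL11* and *IL7R* sit at the upper left, *CXCL17* and *IL20RB* at the lower left, and *IL32* far to the right; both axes share the EV libraries.

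The plot of both fold changes places the members that parted between the isoforms away from the dashed line. Those at the upper left included the CXC chemokine genes of a cluster on chromosome 4, which is described first.

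The CXC chemokine cluster spans 358.7 kb on human build GRCh37. In order it holds *CXCL8* at chr4:74606236-74609433, *CXCL6* at chr4:74702357-74714781, *CXCL1* at chr4:74735110-74737025, *CXCL5* at chr4:74861359-74864394, *CXCL3* at chr4:74902306-74904524 and *CXCL2* at chr4:74962757-74964913, with *PF4* and *PPBP*, which the symbol rule did not choose, between *CXCL1* and *CXCL5*. The first 3 lie on the plus strand and the last 3 on the minus strand. To show what these genes share close to their start, the 90 bases from −120 to −31 relative to the RefSeq start are printed on the strand of each gene, as given in RefSeq and located on GRCh37 by exact match, with *IL6*, a cytokine gene outside the cluster, on chromosome 7, for comparison. Capitals mark matches to the letters GGAATTTCC or to the NF-kB consensus, the sequence that NF-kB dimers are known to bind. This set was chosen after the values and the promoter sequences had been seen. The gene positions above are GENCODE spans, whose starts can differ from the RefSeq starts. The windows printed for *CXCL8*, *CXCL6*, *CXCL3* and *IL6* therefore lie partly or wholly inside the GENCODE spans of these genes.
CXCL8, chr4:74606166-74606255, plus strand: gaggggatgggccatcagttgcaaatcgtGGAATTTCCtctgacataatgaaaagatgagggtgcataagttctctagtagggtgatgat
CXCL6, chr4:74702275-74702364, plus strand: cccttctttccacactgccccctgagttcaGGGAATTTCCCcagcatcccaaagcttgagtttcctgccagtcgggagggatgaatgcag
CXCL1, chr4:74734990-74735079, plus strand: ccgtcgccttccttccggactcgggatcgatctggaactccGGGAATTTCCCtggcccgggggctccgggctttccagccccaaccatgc
CXCL5, chr4:74864425-74864514, minus strand: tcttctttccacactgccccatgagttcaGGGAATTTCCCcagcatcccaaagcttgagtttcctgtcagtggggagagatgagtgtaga
CXCL3, chr4:74904437-74904526, minus strand: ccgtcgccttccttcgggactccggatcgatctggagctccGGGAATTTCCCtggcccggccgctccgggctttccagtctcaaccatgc
CXCL2, chr4:74964943-74965032, minus strand: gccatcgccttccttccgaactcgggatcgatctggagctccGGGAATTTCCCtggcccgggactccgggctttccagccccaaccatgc
IL6, chr7:22766699-22766788, plus strand: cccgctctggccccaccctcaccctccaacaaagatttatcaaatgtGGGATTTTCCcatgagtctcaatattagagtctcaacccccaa

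The letters GGAATTTCC began at −91 in *CXCL8*, −89 in *CXCL6*, −78 in *CXCL1*, −90 in *CXCL5*, −78 in *CXCL3* and −77 in *CXCL2*. Searched on both strands over the 250 bases before the start, they occurred in 0.413% of 35116 RefSeq promoter windows, and in 10 of the 146 windows of the 94 members that have any, which belong to 9 members, the others being *CXCL10*, *CXCL11* and *IL18RAP*. The NF-kB consensus occurred in 9.96% of all windows and in 24 of the 146 member windows, each of a different member. Those called in a comparison were *CXCL1*, *CXCL2*, *CXCL3*, *CXCL5*, *CCL20*, *IL1R2*, *IL6*, *IL12A*, *IL15RA*, *IL23A* and *IL32*. *IL4R*, *IL6ST*, *IL11RA* and *IL27RA* were tested and never called. The others, *CXCL6*, *CXCL10*, *CXCL11*, *CCL22*, *CCR3*, *IL17D*, *IL17REL*, *IL18R1* and *IL22RA1*, were not tested. Being called was common among all tested members, 28 of 41 in at least 1 comparison. The match in *CXCL8* has the shorter letters only. Where both motifs occur at 1 place, the matches overlap. A T-box half-site, AGGTGTNA on either strand, was found in 2.15% of all windows and in 7 of the 146 member windows, those of *CXCR1*, *IL17RC*, *IL18BP*, *IL18R1*, *IL32*, *IL37* and *IL7R*, and TATAAA in 10.7% of all windows and in 28 of the 146 member windows. None of the cluster genes had a T-box half-site in this window. These matches describe the letters and were not tested for binding. *CXCL6*, which holds the same letters as its neighbours, was listed at 0 in 4 libraries and did not exceed 0.0173 RPKM.

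*CXCL5* was the most abundant chemokine in every line. Its level was 37.7 and 41.4 RPKM in EV, 74.5 and 77.8 in TBX3iso1, and 144 and 129 in TBX3iso2. The lines did not overlap, and the log2 fold change was 0.94 ± 0.09 (SE, adjusted p = 0.000171) for TBX3iso1 and 1.79 ± 0.09 (adjusted p = 1.06e-05) for TBX3iso2 against EV. The difference of 0.84 ± 0.09 between the isoforms was called as well (adjusted p = 0.00141). *CXCL5* was thus the only gene of the cluster that was called higher with both isoforms.

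*CXCL8*, which encodes interleukin-8, was at 15.2 and 17.8 RPKM in EV, 6.70 and 7.79 in TBX3iso1, and 67.4 and 51.2 in TBX3iso2. It fell with TBX3iso1 (log2 fold change −1.18 ± 0.15, adjusted p = 0.000636) and rose with TBX3iso2 (1.83 ± 0.15, adjusted p = 8.53e-05). The TBX3iso2 mean of 59.3 RPKM was 8.19 times the TBX3iso1 mean of 7.24, a log2 difference of 3.01 with a 95% interval of 2.67 to 3.35. *CXCL2*, a ligand of CXCR2, went the same way, with 6.51 and 7.60 RPKM in EV, 3.52 and 3.33 in TBX3iso1, and 21.2 and 15.9 in TBX3iso2. Its log2 fold change against EV was −1.02 ± 0.14 for TBX3iso1 (adjusted p = 0.00113) and 1.37 ± 0.14 for TBX3iso2 (adjusted p = 0.000278). For both genes all libraries of TBX3iso1 lay below EV and all libraries of TBX3iso2 above it.

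*CXCL3*, another CXCR2 ligand, was at 2.29 and 3.30 RPKM in EV, 1.36 and 1.94 in TBX3iso1, and 12.1 and 8.64 in TBX3iso2. The rise with TBX3iso2 was 1.86 ± 0.24 on the log2 scale (adjusted p = 0.000683). The fall with TBX3iso1 was −0.72 ± 0.24 and lay close to the threshold (adjusted p = 0.0397). That call was lost without EV replicate 2 (−0.47, adjusted p = 0.245), without TBX3iso1 replicate 1 (−0.48, adjusted p = 0.147) and under median-ratio scaling or quantile normalization (−0.67 and −0.51). *CXCL1* was at 2.81 and 3.66 RPKM in EV, 3.20 and 4.30 in TBX3iso1, and 14.6 and 12.3 in TBX3iso2. The EV and TBX3iso1 libraries overlapped, with a difference of 0.21 and a 95% interval of −0.20 to 0.62, whereas TBX3iso2 was higher than EV by 2.03 ± 0.18 (adjusted p = 0.000127).

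Summed over *CXCL1*, *CXCL2*, *CXCL3*, *CXCL5* and *CXCL8*, the level was 64.5 and 73.8 RPKM in EV, 89.3 and 95.2 in TBX3iso1, and 260 and 218 in TBX3iso2. The TBX3iso1 line had the higher sum than EV although 3 of the 5 genes were called lower there, and *CXCL5* made up most of that sum. All 5 genes were called higher in TBX3iso2 than in TBX3iso1, by log2 differences of 3.01 for *CXCL8*, 2.58 for *CXCL3*, 2.39 for *CXCL2*, 1.83 for *CXCL1* and 0.84 for *CXCL5*. Each of these calls was kept whichever library was left out. Without moderation of the variance, all 5 were lost in a linear model on unlogged RPKM. Those of *CXCL1*, *CXCL3* and *CXCL5* were also lost in such a model on log2 values. *PF4* and *PPBP*, the platelet chemokine genes inside the cluster, did not exceed 0.0295 and 0.0222 RPKM.

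**Figure D2:**
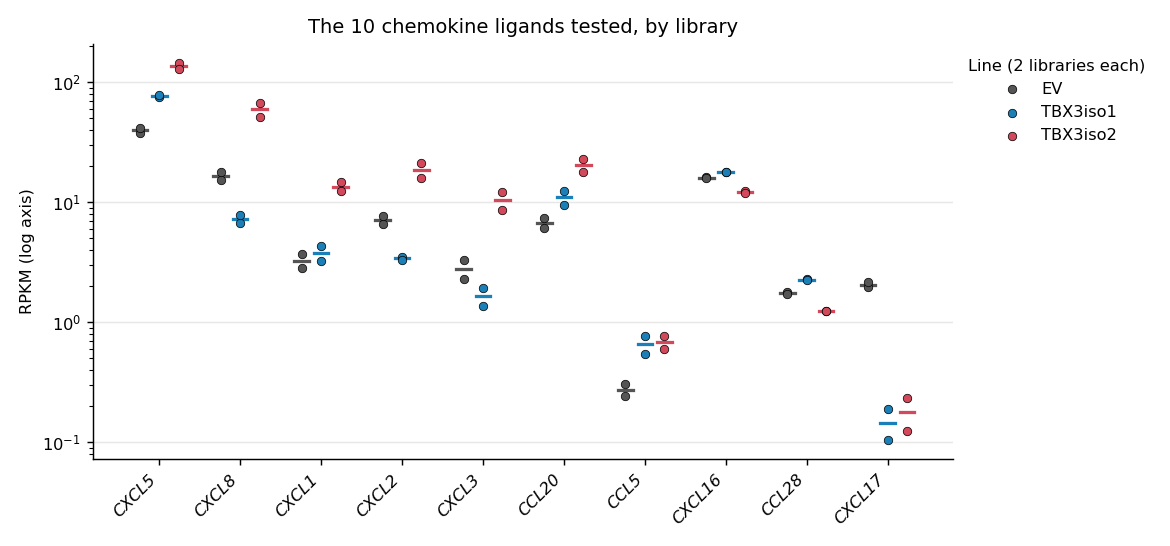
RPKM (log axis) of the 10 chemokine ligands tested, with a point for each of the 2 libraries of EV, TBX3iso1 and TBX3iso2 and a bar for the mean. *CXCL8*, *CXCL2* and *CXCL3* step down from EV to TBX3iso1 and up to TBX3iso2, *CXCL5* and *CCL20* step up from EV to TBX3iso1 and again to TBX3iso2, and *CXCL17* lies at 1.95 and 2.17 RPKM in EV against 0.104 to 0.233 in the isoform lines.

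Outside the cluster, the plot of chemokine ligands by library shows 5 further genes. *CCL20*, the ligand of CCR6 that attracts immature dendritic cells and Th17 cells, was at 6.07 and 7.39 RPKM in EV, 9.54 and 12.5 in TBX3iso1, and 23.0 and 17.9 in TBX3iso2. It was higher with TBX3iso2 than with EV (log2 fold change 1.59 ± 0.17, adjusted p = 0.000295) and than with TBX3iso1 (0.89 ± 0.17, adjusted p = 0.0133). It was also higher with TBX3iso1 than with EV, by 0.70 ± 0.17 (adjusted p = 0.0121). This last call was lost without EV replicate 1 (0.56, adjusted p = 0.0996) and without TBX3iso1 replicate 2 (0.50, adjusted p = 0.0541).

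*CCL5*, which attracts T cells and monocytes, was low throughout, at 0.241 and 0.306 RPKM in EV, 0.542 and 0.769 in TBX3iso1, and 0.594 and 0.775 in TBX3iso2. It was called higher with both isoforms, by 1.00 and 1.07 on the log2 scale, and the isoform libraries overlapped each other (difference 0.06, 95% interval −0.46 to 0.59). Both calls were lost without EV replicate 1, at 0.88 (adjusted p = 0.0683) and 0.94 (adjusted p = 0.0559), and the TBX3iso1 call also without TBX3iso1 replicate 2 (0.79, adjusted p = 0.0573). With 1 RPKM added instead of 0.1 the changes were 0.38 and 0.40, under the fold threshold. *CXCL17*, a mucosal chemokine, showed the opposite picture, with 1.95 and 2.17 RPKM in EV, 0.104 and 0.188 in TBX3iso1, and 0.233 and 0.124 in TBX3iso2. It fell with both isoforms, by log2 fold changes of −3.15 ± 0.26 (adjusted p = 0.000105) and −2.98 ± 0.26 (adjusted p = 0.000133), and the isoform lines overlapped. With 1 RPKM added the falls of *CXCL17* were −1.42 and −1.38 and stayed called.

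*CCL28* and *CXCL16* are epithelial chemokines, and *CXCL16* is made as a membrane-bound protein that is also shed. *CCL28* was at 1.77 and 1.72 RPKM in EV, 2.27 and 2.23 in TBX3iso1, and 1.24 and 1.23 in TBX3iso2. Neither change against EV reached a fold of 1.5 (log2 fold change 0.35 and −0.47), but their difference did (−0.82 ± 0.11, adjusted p = 0.00452), although not with 1 RPKM added (−0.54). *CXCL16* was at 16.0 and 15.9 RPKM in EV, 17.7 and 17.8 in TBX3iso1, and 12.3 and 11.9 in TBX3iso2. Here too the isoform lines lay on opposite sides of EV, but the difference of −0.55 ± 0.07 was under the fold threshold with the values as deposited and past it after median-ratio scaling (−0.61) or quantile normalization (−0.60).

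The other 18 chemokine ligands were not tested, and none exceeded 0.5 RPKM in any library. *CCL26* and *CCL24*, both eosinophil attractants, reached 0.483 and 0.377 RPKM, *CXCL10* reached 0.124, and the rest stayed under 0.1. These included *CXCL12*, the ligand of CXCR4, with at most 0.00549 RPKM, *CCL2* with at most 0.0337, and *CXCL9* and *CXCL11*, which respond to interferon, with at most 0.0181 and 0.0787. *CCL3*, *CCL3L1* and *CCL3L3* are near-identical copies, and how reads were divided among them is uncertain.

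Of the chemokine receptors, *CXCR4*, the receptor for CXCL12, was the only member tested. It was at 0.586 and 0.443 RPKM in EV, 2.37 and 2.46 in TBX3iso1, and 1.86 and 1.58 in TBX3iso2. Both isoform lines lay above EV, by log2 fold changes of 2.04 ± 0.16 (adjusted p = 8.21e-05) and 1.57 ± 0.16 (adjusted p = 0.000262). TBX3iso2 was below TBX3iso1 in both libraries, but that difference was not called (−0.47, 95% interval −0.85 to −0.10, adjusted p = 0.0926). These calls against EV were kept whichever library was left out, and with 1 RPKM added, at 1.18 and 0.84.

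The other 13 chemokine receptors did not exceed 0.321 RPKM, the level of *CCR1* in its highest library. The receptors of the abundant ligands were among them. *CXCR1*, a receptor of CXCL8, was at 0.0182 and 0.0115 RPKM in EV, 0.0690 and 0.112 in TBX3iso1, and 0.0783 and 0.117 in TBX3iso2. *CXCR2*, the receptor shared by the ELR chemokines, was listed at 0 in 5 libraries and at 0.0197 RPKM in the sixth, and *CCR6*, the receptor of CCL20, lay between 0.0264 and 0.0547. *CXCR6*, the receptor of CXCL16, was at 0.0232 and 0.0440 RPKM in EV and listed at 0 in the isoform lines. So the ligands that were highest in these cells were measured beside very low levels of their own receptors. In bulk RNA, fewer cells with a transcript cannot be told apart from less transcript per cell.

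Of the interleukins, *IL18* was the only one that reached 10 RPKM. *IL11* and *IL6*, which both signal through the shared chain gp130, were highest in TBX3iso2. *IL11* was at 2.32 and 1.89 RPKM in EV, 1.58 and 1.70 in TBX3iso1, and 8.51 and 6.44 in TBX3iso2. It rose with TBX3iso2 by 1.77 ± 0.16 on the log2 scale (adjusted p = 0.000150), while TBX3iso1 was −0.34 from EV and not called (adjusted p = 0.119). Between the isoforms the difference was 2.11 ± 0.16 (adjusted p = 0.000356). *IL6* was at 1.62 and 1.93 RPKM in EV, 2.66 and 2.57 in TBX3iso1, and 5.71 and 3.95 in TBX3iso2. It was called higher with TBX3iso2 than with EV (1.38 ± 0.18, adjusted p = 0.000714) and than with TBX3iso1 (0.84 ± 0.18, adjusted p = 0.0203). TBX3iso1 against EV was 0.54 and under the fold threshold, but past it after median-ratio scaling (0.59) or quantile normalization (0.75). The difference between the isoforms was lost without either TBX3iso1 library (0.86, adjusted p = 0.0537, and 0.82, adjusted p = 0.0614) and fell under the fold threshold without TBX3iso2 replicate 1 (0.58).

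The chains that receive these cytokines were not called in any comparison. *IL6ST*, which encodes gp130, was at 14.6 and 13.3 RPKM in EV, 14.6 and 12.5 in TBX3iso1, and 12.9 and 9.35 in TBX3iso2. *IL6R* lay between 3.39 and 5.06 RPKM and *IL11RA* between 0.780 and 1.26. Their intervals against EV in TBX3iso2 were −0.65 to −0.01 for *IL6R* and −0.65 to 0.08 for *IL11RA*.

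*IL32*, a proinflammatory cytokine gene without a close relative, was the interleukin that moved most with TBX3iso1. It was at 0.976 and 1.18 RPKM in EV, 6.43 and 6.77 in TBX3iso1, and 1.44 and 1.66 in TBX3iso2. The log2 fold change was 2.51 ± 0.13 for TBX3iso1 (adjusted p = 1.57e-05) and 0.49 ± 0.13 for TBX3iso2, the latter under the fold threshold. The TBX3iso2 value passed that threshold after quantile normalization (0.66), without EV replicate 2 (0.62) or without TBX3iso2 replicate 1 (0.59). The difference between the isoforms, −2.02 ± 0.13, was called (adjusted p = 0.000199) and ran opposite to that of the CXC cluster.

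In the IL-1 family, the agonists and the antagonist were called against EV in different isoform lines. *IL1A* and *IL1B* encode the agonists IL-1 alpha and IL-1 beta, *IL1RN* encodes the receptor antagonist, and all 3 lie within a cluster of 360.1 kb on chromosome 2. *IL1A* was at 2.31 and 2.72 RPKM in EV, 2.44 and 2.75 in TBX3iso1, and 1.24 and 1.22 in TBX3iso2, and *IL1B* was at 2.46 and 3.39, 2.76 and 2.69, and 1.61 and 1.28. Both fell with TBX3iso2 against EV, by log2 fold changes of −0.97 ± 0.13 (adjusted p = 0.000855) and −0.96 ± 0.17 (adjusted p = 0.00348). TBX3iso1 overlapped EV for both, with 95% intervals of −0.26 to 0.35 and −0.48 to 0.33. *IL1RN* was at 0.931 and 0.80 RPKM in EV, 1.67 and 2.05 in TBX3iso1, and 0.806 and 0.728 in TBX3iso2. It rose with TBX3iso1 (1.02 ± 0.16, adjusted p = 0.00192), while TBX3iso2 overlapped EV. All 3 genes were lower in TBX3iso2 than in TBX3iso1, by −1.02, −0.88 and −1.17 on the log2 scale, and the *IL1B* call was lost without TBX3iso1 replicate 1 (−0.86, adjusted p = 0.0545).

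**Figure D3:**
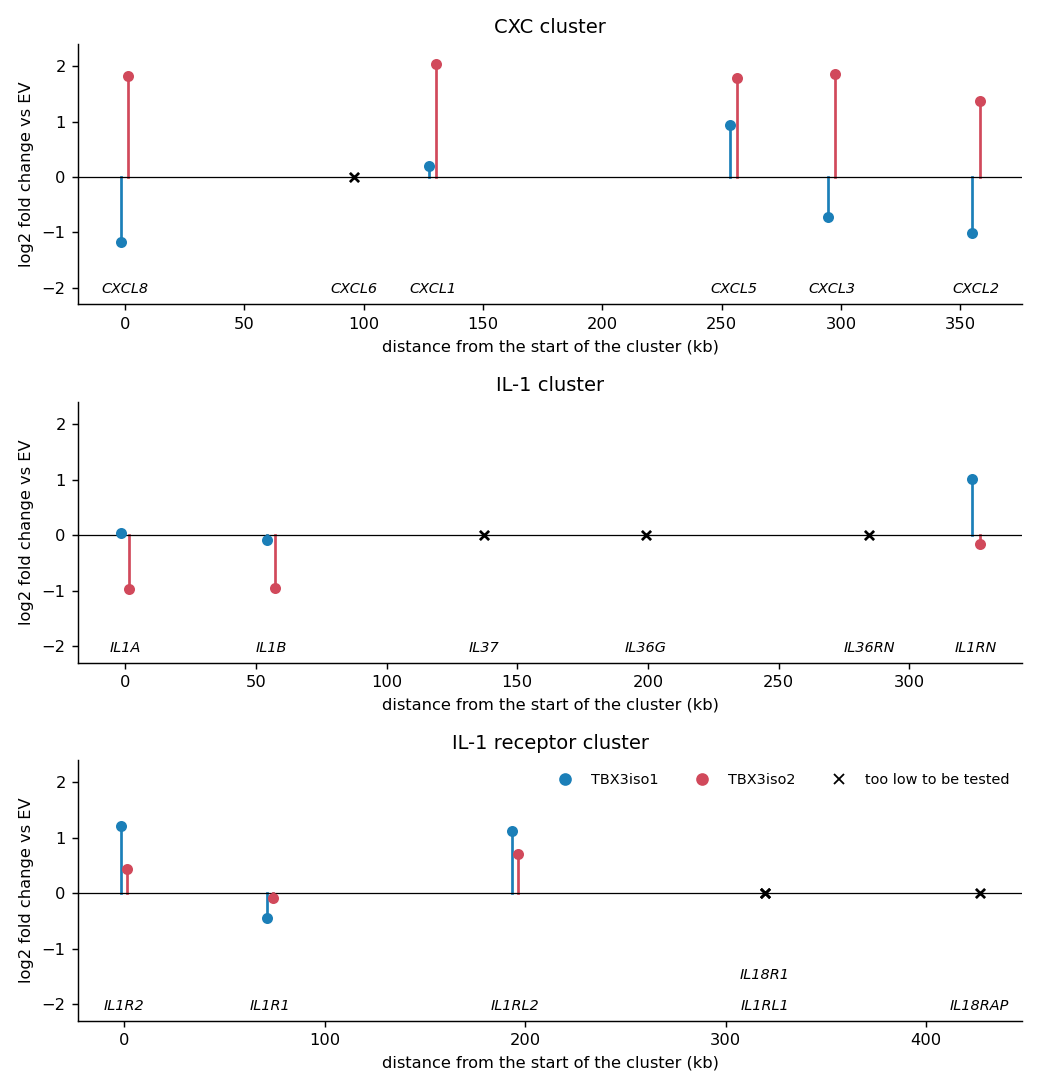
Log2 fold change against EV (vertical axis) of TBX3iso1 (blue) and TBX3iso2 (red) for the members in 3 gene clusters, by distance of the gene from the start of its cluster in kb, with crosses for genes too low to be tested. In the CXC cluster the TBX3iso2 values of the 5 tested genes run from 1.37 to 2.03 while those of TBX3iso1 run from −1.18 to 0.94.

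The plot of the gene clusters shows the IL-1 genes beside the CXC cluster. In the IL-1 cluster *IL37*, *IL36G* and *IL36RN*, between *IL1B* and *IL1RN*, were too low to be tested, with at most 0.146, 0.118 and 0.0360 RPKM. In the IL-1 receptor cluster, which spans 460.6 kb on chromosome 2, *IL1R2* was at 3.34 and 2.99 RPKM in EV, 7.54 and 7.37 in TBX3iso1, and 3.54 and 5.26 in TBX3iso2. This gene encodes a decoy receptor that binds IL-1 without passing on a signal. It was called higher with TBX3iso1 (1.21 ± 0.17, adjusted p = 0.00118) and lower in TBX3iso2 than in TBX3iso1 (−0.78 ± 0.17, adjusted p = 0.0241). The TBX3iso2 libraries stood apart from each other. Without TBX3iso2 replicate 1 the rise of *IL1R2* against EV was 0.72 and called, and the difference between the isoforms was −0.50 and under the fold threshold. That difference was lost as well without either TBX3iso1 library (−0.76, adjusted p = 0.0714, and −0.79, adjusted p = 0.0614).

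*IL1RL2*, the receptor of the IL-36 cytokines, was at 0.967 and 0.715 RPKM in EV, 2.27 and 1.64 in TBX3iso1, and 1.60 and 1.26 in TBX3iso2. It was higher than EV with TBX3iso1 (1.12 ± 0.21, adjusted p = 0.00427) and with TBX3iso2 (0.70 ± 0.21, adjusted p = 0.0289), the latter call being lost without EV replicate 2 (0.51, adjusted p = 0.187) or without TBX3iso2 replicate 1 (0.54, adjusted p = 0.0880). *IL1R1*, the signalling receptor of IL-1, was at 5.78 and 5.49 RPKM in EV, 4.64 and 3.62 in TBX3iso1, and 5.95 and 4.72 in TBX3iso2, and its partner chain *IL1RAP* lay between 5.78 and 7.69 RPKM. Neither was called in any comparison. *IL1RL1*, *IL18R1* and *IL18RAP*, at the end of the cluster, did not exceed 0.412, 0.336 and 0.00944 RPKM, and the first 2 overlap in position, so reads may have been divided between them. *IL18* itself was at 14.0 and 14.7 RPKM in EV, 10.0 and 10.6 in TBX3iso1, and 10.3 and 13.5 in TBX3iso2, below EV in all 4 isoform libraries but under the fold threshold (−0.47 and −0.28). *IL18BP*, which captures IL-18, was not called.

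*IL12A* and *IL23A* encode alpha chains that pair with the product of *IL12B* to form IL-12 and IL-23. *IL23A* was at 0.694 and 0.660 RPKM in EV, 1.48 and 1.60 in TBX3iso1, and 1.33 and 1.64 in TBX3iso2. It was higher with both isoforms, by 1.08 and 1.02 on the log2 scale (adjusted p = 0.00109 and 0.00134), with the isoform libraries overlapping. *IL12A* was at 0.486 and 0.596, 0.628 and 0.716, and 0.995 and 1.01 RPKM in the same order, and was called with TBX3iso2 only (0.79 ± 0.17, adjusted p = 0.00692). Without EV replicate 1 that call was lost (0.66, adjusted p = 0.0594), and with 1 RPKM added the changes of *IL12A* (0.38) and of *IL23A* with TBX3iso2 (0.57) were under the fold threshold. *IL12B*, which both cytokines need, did not exceed 0.0835 RPKM.

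**Figure D4:**
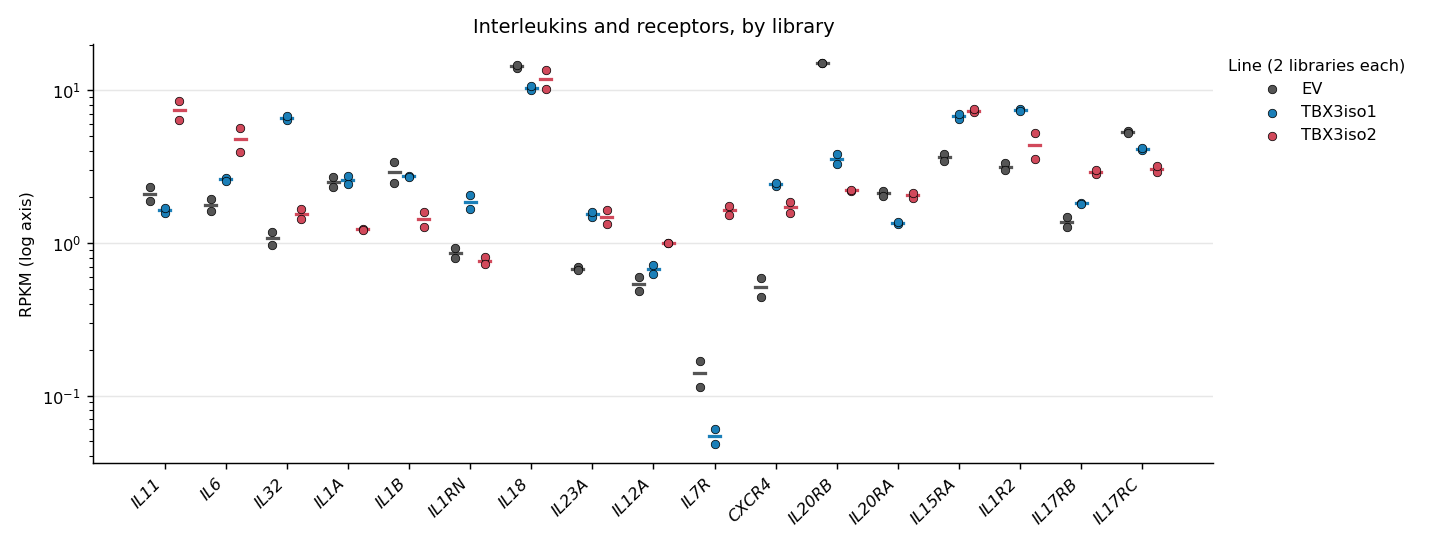
RPKM (log axis) of 17 interleukins, antagonists and receptors, with a point for each of the 2 libraries of EV, TBX3iso1 and TBX3iso2 and a bar for the mean. *IL32* and *IL1RN* peak in TBX3iso1, *IL11*, *IL6* and *IL7R* in TBX3iso2, and *IL20RB* falls from 15 and 15.1 RPKM in EV to 2.20 and 2.23 in TBX3iso2.

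In the plot of interleukins and receptors by library, *IL7R* and *IL20RB* had the widest gaps among the receptors. *IL7R* (chr5:35852797-35879705, plus strand) encodes the alpha chain of the IL-7 receptor, best known from lymphocytes. It was at 0.113 and 0.168 RPKM in EV, 0.0479 and 0.0603 in TBX3iso1, and 1.75 and 1.52 in TBX3iso2. It rose with TBX3iso2 by 2.85 ± 0.21 against EV (adjusted p = 6.51e-05) and by 3.49 ± 0.21 against TBX3iso1 (adjusted p = 0.000150). The TBX3iso1 value against EV, −0.63 ± 0.21 (adjusted p = 0.0443), was called lower, but both lines lay near the level that was added before taking logarithms. That lower call was lost whichever EV or TBX3iso1 library was left out (−0.47 to −0.80, adjusted p = 0.0608 to 0.216) and with 1 RPKM added (−0.11). The *IL7R* rises with TBX3iso2 stayed called with 1 RPKM added, at 1.21 against EV and 1.32 against TBX3iso1. The window before the RefSeq start of *IL7R* holds a T-box half-site at −240 with the letters AGGTGTGA. *IL7*, the ligand, was not tested and was at 0.207 and 0.0967 RPKM in EV, 0.614 and 0.607 in TBX3iso1, and 0.410 and 0.461 in TBX3iso2. *IL2RG*, the common gamma chain that pairs with the product of *IL7R*, did not exceed 0.227 RPKM. Of the T cell and leukocyte markers, *PTPRC* and *CD3E* did not exceed 0.0102 and 0.0299 RPKM, and *CD3D* lay between 0.0680 and 0.131, and their part in the *IL7R* values was not tested.

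*IL20RB* (chr3:136665072-136729927, plus strand) encodes a chain shared by the receptors of IL-19, IL-20 and IL-24. It was at 15 and 15.1 RPKM in EV, 3.29 and 3.82 in TBX3iso1, and 2.20 and 2.23 in TBX3iso2. The fall was −2.06 ± 0.10 with TBX3iso1 (adjusted p = 1.05e-05) and −2.71 ± 0.10 with TBX3iso2 (adjusted p = 4.39e-06), and the further difference of −0.66 between the isoforms was called, though not without TBX3iso1 replicate 2 (−0.55). *IL20RA*, its partner chain, was at 2.21 and 2.04 RPKM in EV, 1.33 and 1.36 in TBX3iso1, and 1.98 and 2.12 in TBX3iso2. It was called lower with TBX3iso1 (−0.62 ± 0.12, adjusted p = 0.00456), but not under either other scaling (−0.57 and −0.41) or without EV replicate 1 (−0.56, adjusted p = 0.0501). The difference of 0.57 between the isoforms was under the fold threshold, and past it without TBX3iso2 replicate 1 (0.62). Of the ligands, *IL24* was at 0.537 and 0.608 RPKM in EV, 0.322 and 0.382 in TBX3iso1, and 0.418 and 0.484 in TBX3iso2, and *IL20* was at 0.238 and 0.418, 0.0596 and 0.0613, and 0.118 and 0.0706. Both ligands were below EV in all 4 isoform libraries and neither was tested.

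Receptors of the IL-17 family went in different directions. *IL17RB*, a chain for IL-17B and IL-25, was at 1.48 and 1.26 RPKM in EV, 1.84 and 1.79 in TBX3iso1, and 2.84 and 3.02 in TBX3iso2. It rose with TBX3iso2 (1.04 ± 0.13, adjusted p = 0.000529), and the 0.38 of TBX3iso1 was under the fold threshold except after quantile normalization (0.59). The difference of 0.66 between the isoforms was called (adjusted p = 0.0136), but not without either TBX3iso1 library (adjusted p = 0.0533 and 0.0592). *IL17RC*, which pairs with *IL17RA* to receive IL-17A, was at 5.39 and 5.27 RPKM in EV, 4.04 and 4.18 in TBX3iso1, and 2.93 and 3.21 in TBX3iso2, and fell with TBX3iso2 (−0.78 ± 0.10, adjusted p = 0.000602). *IL17RE*, which receives IL-17C, was at 2.17 and 1.99, 1.09 and 1.27, and 1.28 and 1.77 RPKM, and was called lower with TBX3iso1 (−0.77 ± 0.17, adjusted p = 0.00914). That *IL17RE* call was lost without EV replicate 1 (−0.71, adjusted p = 0.0739) and under quantile normalization (−0.56), while TBX3iso2 was called without TBX3iso2 replicate 2 (−0.66, adjusted p = 0.0140). *IL17RA* was not called in any comparison.

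*IL15RA*, the IL-15 binding chain, was higher with both isoforms. It was at 3.85 and 3.46 RPKM in EV, 6.53 and 6.98 in TBX3iso1, and 7.24 and 7.51 in TBX3iso2, with log2 fold changes of 0.87 ± 0.09 (adjusted p = 0.000364) and 0.99 ± 0.09 (adjusted p = 0.000195). The difference between the isoforms was 0.13 with a 95% interval of −0.09 to 0.35. *IL31RA*, a chain of the IL-31 receptor, was at 0.668 and 0.658 RPKM in EV, 1.23 and 0.986 in TBX3iso1, and 1.33 and 1.08 in TBX3iso2, and was called with both isoforms (0.66 and 0.77). Both *IL31RA* calls were lost without either EV library (adjusted p = 0.0817 and 0.0894 for TBX3iso1, 0.0518 and 0.0570 for TBX3iso2), and the TBX3iso1 call also without TBX3iso1 replicate 1 (0.51).

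Several abundant receptor chains stayed within a fold of 1.5 of EV. *IL4R* was at 21.0 and 18.8 RPKM in EV, 23.2 and 22.7 in TBX3iso1, and 22.8 and 21.4 in TBX3iso2, and its partner *IL13RA1*, with which it receives IL-4 and IL-13, lay between 17.1 and 22.1. *IL10RB*, a chain shared by receptors of the IL-10 family, was at 14.0 and 13.8 RPKM in EV, 10.3 and 11 in TBX3iso1, and 9.90 and 9.77 in TBX3iso2. Its changes of −0.39 and −0.50 passed the adjusted p but not the fold. *IL27RA* was at 11.7 and 10.7 RPKM in EV, 16.2 and 16.0 in TBX3iso1, and 12.6 and 11.5 in TBX3iso2, and its 0.52 with TBX3iso1 was under the fold threshold and past it without EV replicate 1 (0.59). None of these chains was called in any comparison.

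Members too low to be tested made up the remaining interleukins and receptor chains. Among 22 interleukins, *IL17D*, *IL7*, *IL24*, *IL15* and *IL20* had a highest library of 0.639, 0.614, 0.608, 0.538 and 0.418 RPKM, *IL34*, *IL37*, *IL36G* and *IL17C* lay between 0.116 and 0.165 at their highest, and the other 13, the T cell cytokines *IL4*, *IL5*, *IL10*, *IL13*, *IL17F* and *IL22* among them, stayed under 0.1. Of the 16 receptor chains not tested, 9 stayed under 0.1 RPKM. *IL22RA1*, the IL-22 receptor of epithelia, was at 0.160 and 0.126 RPKM in EV, 0.306 and 0.247 in TBX3iso1, and 0.320 and 0.245 in TBX3iso2. Antisense genes such as *IL10RB-AS1*, at most 0.183 RPKM, overlap coding genes, and it is not stated whether strand was used in counting.

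**Figure D5:**
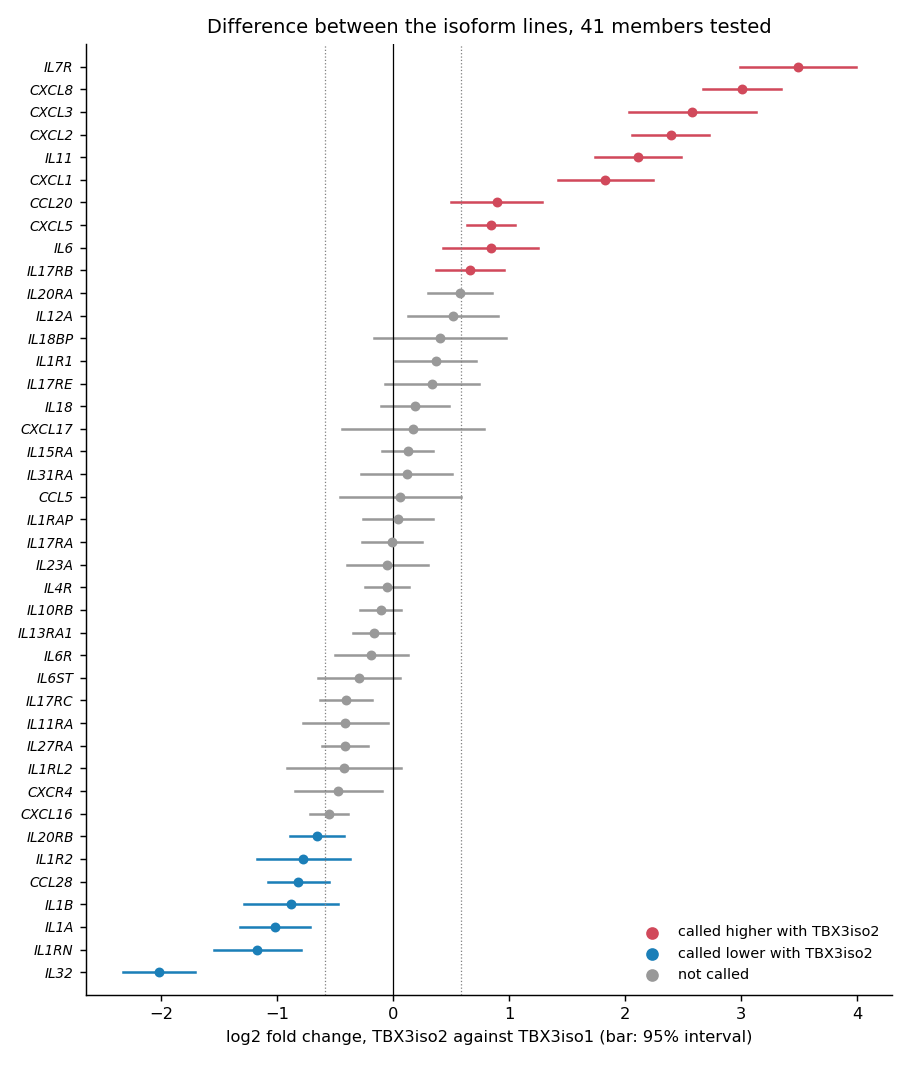
Log2 fold change between TBX3iso2 and TBX3iso1 for the 41 tested members, with 95% intervals from limma, dotted lines at a fold of 1.5, and colours for members called higher (red) or lower (blue) with TBX3iso2. The 10 members at the top run from *IL7R* at 3.49 to *IL17RB* at 0.66, and the 7 at the bottom from *IL20RB* at −0.66 to *IL32* at −2.02.

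The plot of the difference between the isoform lines gives the divergent members in order of their difference on the log2(RPKM + 0.1) scale, in which *IL7R* is first, whereas with 1 RPKM added *CXCL8* (2.86) was ahead of it (1.32). Higher with TBX3iso2 were *IL7R*, *CXCL8*, *CXCL3*, *CXCL2*, *IL11*, *CXCL1*, *CCL20*, *CXCL5*, *IL6* and *IL17RB*, and lower were *IL32*, *IL1RN*, *IL1A*, *IL1B*, *CCL28*, *IL1R2* and *IL20RB*. Neighbours in this order had overlapping 95% intervals, except *CXCL1* and *CCL20* among the higher members and *IL32* and *IL1RN* among the lower. Of the 17 members called between the isoforms, 7 were also called with both isoforms against EV, 6 with TBX3iso2 only, 3 with TBX3iso1 only, and 1, *CCL28*, with neither. In 6 of them, *CCL28*, *CXCL2*, *CXCL3*, *CXCL8*, *IL11* and *IL7R*, all libraries of the isoforms lay on opposite sides of EV, with TBX3iso2 above EV in 5 and below it in *CCL28*. Among members that were not tested, *IL12B*, *IL12RB2* and *IL1RL1* had this layout too, at no more than 0.412 RPKM. How many of all tested genes had this layout was not counted, so the 6 members have no background share.

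A list of 73 genes of cytokine and chemokine signalling outside the naming rule was set beside the members. Of these, 72 were in the table and 60 were tested. In TBX3iso1 against EV 7 were higher and 8 lower (25.0% called), in TBX3iso2 against EV 10 were higher and 6 lower (26.7%), and between the isoforms 6 were higher with TBX3iso2 and 2 lower (13.3%). The list was thus nearer to the 21.5%, 21.2% and 6.29% of all genes than the members were. The median log2 fold changes were −0.12, 0.00 and 0.09.

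Among the called signalling genes with the largest changes against EV, the colony-stimulating factors went in opposite directions. *CSF2*, which encodes GM-CSF, was at 0.893 and 1.13 RPKM in EV, 2.53 and 2.76 in TBX3iso1, and 6.88 and 5.51 in TBX3iso2, with log2 fold changes of 1.31 ± 0.16 and 2.50 ± 0.16. *CSF1*, which encodes M-CSF, was at 29.1 and 28.6 RPKM in EV, 13.2 and 12.3 in TBX3iso1, and 7.03 and 6.73 in TBX3iso2, with log2 fold changes of −1.17 ± 0.08 and −2.05 ± 0.08. Both genes also differed between the isoforms, by 1.19 for *CSF2* (adjusted p = 0.00327) and −0.88 for *CSF1* (adjusted p = 0.000612). *STAT2*, a mediator of type I interferon signalling, fell in both lines, from 19.0 and 19.2 RPKM in EV to 8.63 and 7.97 in TBX3iso1 and 7.84 and 6.72 in TBX3iso2. *RELB*, an NF-kB subunit, rose from 4.15 and 3.82 RPKM to 6.81 and 7.14 and to 9.52 and 9.52. *IKBKB*, the kinase that releases NF-kB from its inhibitor, was at 2.73 and 2.56 RPKM in EV, 5.45 and 4.97 in TBX3iso1, and 2.67 and 2.81 in TBX3iso2, so that it was higher with TBX3iso1 only (0.95 ± 0.10, adjusted p = 0.000364) and differed between the isoforms (−0.90, adjusted p = 0.00212). *SOCS2*, a feedback inhibitor of JAK and STAT signalling, was at 1.58 and 1.16, 2.12 and 2.24, and 3.57 and 3.83 RPKM.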

How the data were processed

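Polyadenylated RNA of 6 libraries, 2 for each of EV, TBX3iso1 and TBX3iso2, was sequenced as stranded paired-end libraries on an Illumina HiSeq. Using Galaxy, the authors ran TopHat against hg19, RPKM were then derived with Partek Genomics Suite, and the deposited values are RPKM on the linear scale with the number of alignments per library. The versions and the gene annotation are not given in the sources used here.

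RPKM were taken to log2 after adding 0.1, and the 12805 genes whose 6-library mean was 0.5 RPKM or more entered a limma fit (limma 3.58.1, R 4.3.3). The fit had 1 mean for each line and used trended empirical Bayes moderation, with p-values adjusted by Benjamini-Hochberg across those genes. Fold changes are on the log2(RPKM + 0.1) scale, which understates changes of low genes. Calls required both an adjusted p below 0.05 and more than a 1.5-fold difference, as in the study's methods, which used analysis of variance. The model was checked on simulated data with known changes, drawn under its own assumptions, which does not test whether these libraries meet them. Two-sided tests were used throughout, and with 2 libraries a line no permutation test of a single gene can pass 0.05. Without gene counts, no counting interval was computed.

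The members, the gene lists and the tests were chosen with earlier results of these data known. Members named are those called in any of the 3 comparisons, those with a mean of at least 10 RPKM in a line and those on opposite sides of EV, and the rest by their levels. Of the signalling list, the 5 called genes with the largest change against EV in each isoform were named, apart from any not reported here. The promoters printed, and the letters GGAATTTCC, were chosen after values and sequences had been seen. Gene positions are from GENCODE on GRCh37, found for 117 of the 118 members, and promoter windows from RefSeq. Alternatives were other pseudocounts (1 and 0.01 RPKM), no filter or one at 2 RPKM, quantile normalization, median-ratio scaling, a fit of the compared lines only, a replicate block, no trend, models without moderation, and each library left out.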

Additional observations from a re-analysis of the deposited data

Results flagged for a closer look

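In 6 members the libraries of the isoform lines lay on opposite sides of EV and the difference between the isoforms was called by limma. The share of all tested genes with this layout was not counted. The log2 fold change of TBX3iso2 against TBX3iso1 was 3.49 for *IL7R*, 3.01 for *CXCL8*, 2.58 for *CXCL3*, 2.39 for *CXCL2*, 2.11 for *IL11* and −0.82 for *CCL28*. *IL7R* reached the mean required for a test only through TBX3iso2, so a difference was built into its entry. For the other 5 members the difference itself was tested, whereas the TBX3iso1 side against EV was not called for *IL11* and *CCL28*, nor the TBX3iso2 side for *CCL28*. The TBX3iso1 side was called for *CXCL3* and *IL7R*, but these calls were lost in 9 and 10 of the alternative settings.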

How the results depend on the processing

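No called value changed direction under the 17 alternative settings. Of 58 calls of named members in the 3 comparisons, 42 were kept whichever library was left out. Under the alternatives in which the gene was tested, 24 were kept throughout, and 39 when the models without moderation are set aside. With the mean of 2 RPKM required, only 37 of the 58 calls were tested again. The calls of genes dropped by that filter count as kept in the 39 and 24. In TBX3iso1 against EV, the 11 members higher became 5 with a mean of 2 RPKM required, 6 in an ordinary linear model on log2 values and 7 on unlogged RPKM. The 8 lower became 4 with 1 RPKM added, 4 with the mean of 2 RPKM, 5 under median-ratio scaling, 5 under quantile normalization, 4 in the ordinary model on log2 values and 3 on unlogged RPKM. The 15 signalling genes became 8 with 1 RPKM added and 9 on unlogged RPKM. In TBX3iso2 against EV, the 17 higher became 10 with the mean of 2 RPKM, the 5 lower became 9 without a filter, and the 16 signalling genes became 10 and 9 in the ordinary models on log2 and unlogged values. Between the isoforms, those models gave 3 and 1 in place of 10 higher, 2 and 2 in place of 7 lower, and 3 and 1 in place of 8 signalling genes. Requiring a mean of 2 RPKM also left fewer members to test.

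With each library left out in turn, higher, lower and signalling counts were 9 to 10, 5 to 7 and 13 to 15 in TBX3iso1 against EV, 14 to 18, 5 to 6 and 14 to 17 in TBX3iso2 against EV, and 8 to 10, 5 to 7 and 6 to 10 between the isoforms. The count of 5 lower in TBX3iso1 came without EV replicate 1. Where a line was left with 1 library, that library was assumed to vary like the other lines. With the replicate number as a block, the counts were 11 and 8, 17 and 5, and 10 and 7, and all 58 calls were kept. Same-numbered libraries correlated in their differences at 0.22, 0.11 and 0.50 across genes, and the labels do not say that the numbers pair them.

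Some values that were not called changed sign, among them those of *CXCL1*, *IL1A*, *IL1B* and *IL6ST* in TBX3iso1 against EV. Depth limits the members under 0.5 RPKM, where few alignments lie behind a value.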

Other observations

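Some members below the level required for a test were called when no filter was used. Against EV, *IL7* was higher with both isoforms (1.53 and 1.12 on the log2 scale), as was *CXCR1* (0.72 and 0.78), and *IL20*, *IL2RB* and *CCL17* were lower with both (−1.38 and −1.12, −0.95 and −1.03, −0.70 and −0.70). *CCR10* was lower with TBX3iso1 only (−0.80), *CCL24* was lower (−2.01) and *IL22RA1* higher (0.65) with TBX3iso2 only, and *IL12B* was lower with TBX3iso2 than with TBX3iso1 (−0.68). All these genes lay at or below 0.614 RPKM in every library, and *CCL17* was listed at 0 in both isoform lines.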
